A study of Mus musculus with 10 samples.

Results

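The IgA heavy-chain compartment was made up of the productive heavy-chain sequences whose constant-region call was Igha, the only IgA gene of the mouse. There were 6176 such sequences among 313384 productive heavy-chain sequences of 10 mice. Sequences with one V gene, one J gene and one junction, which is the CDR3 with its flanking cysteine and tryptophan codons, were counted as 1 clonotype. A clonotype found in several mice was assigned to the mouse in which it had the most counts. By this rule there were 1439 IgA clonotypes among 280467 clonotypes of the 5 heavy-chain classes, which included 204766 of IgM and 3949 of IgG.

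The mice gave whole-cell RNA of the deep cervical lymph nodes, which drain the brain and its coverings. All were wild-type C57BL/6 mice injected in the brain with GL261, a mouse glioma line, and the nodes were taken at day 20. One group had received an antibody against CTLA-4, an inhibitory receptor of T cells (n = 5 mice), and the other an isotype IgG (n = 5 mice). Both groups had been injected with the glioma cells, so no comparison here is with a tumour-free mouse, and each mouse gave 1 library.

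IgA is the class of mucosal secretions and is made by plasma cells of the gut, the airways and their draining nodes. B cells switch to it from IgM by recombination that is initiated by AID, the same enzyme that starts somatic mutation of the V segment. AID prefers the C of WRC, an A or T followed by an A or G and then C, and the G of the complementary GYW. Errors that are added when DNA polymerase eta fills the repair gaps fall mostly at A in WA and T in TW. Plasma cells hold far more immunoglobulin RNA than other B cells, so counts weigh secreting cells and clonotypes weigh each rearrangement once.

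The most counted IgA clonotype of each mouse is shown by its junction, because these 10 rearrangements together set much of the IgA signal. They were read from the deposited sequences of the IgH locus on chromosome 12. Capitals mark the bases between the end of the V alignment and the start of the J alignment, which hold the D segment and the added nucleotides.
Anti-CTLA-4 replicate 1, IGHV1-64 and IGHJ4: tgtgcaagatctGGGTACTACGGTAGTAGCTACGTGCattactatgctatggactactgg
Anti-CTLA-4 replicate 2, IGHV1-15 and IGHJ2: tgtacaagaGGCCGTCCACttgactactgg
Anti-CTLA-4 replicate 3, IGHV1-82 and IGHJ2: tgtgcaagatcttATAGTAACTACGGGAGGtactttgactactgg
Anti-CTLA-4 replicate 4, IGHV1-62-3/IGHV1-72 and IGHJ3: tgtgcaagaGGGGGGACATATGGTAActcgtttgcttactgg
Anti-CTLA-4 replicate 5, IGHV9-3 and IGHJ4: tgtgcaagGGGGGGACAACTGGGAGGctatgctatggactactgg
Isotype replicate 1, IGHV1-62-2/IGHV1-71 and IGHJ4: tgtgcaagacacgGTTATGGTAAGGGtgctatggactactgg
Isotype replicate 2, IGHV1-62-3/IGHV1-72 and IGHJ3: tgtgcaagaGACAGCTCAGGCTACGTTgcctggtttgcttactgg
Isotype replicate 3, IGHV5-16 and IGHJ2: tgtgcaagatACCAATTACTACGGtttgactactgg
Isotype replicate 4, IGHV1-81 and IGHJ2: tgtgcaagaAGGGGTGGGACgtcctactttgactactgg
Isotype replicate 5, IGHV1-62-3/IGHV1-72 and IGHJ3: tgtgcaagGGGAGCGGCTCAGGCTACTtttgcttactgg
A name such as IGHV1-62-3/IGHV1-72 is a joint call, given where a sequence matched both V genes equally well. Joint calls made up 108 of the 1439 IgA clonotypes.

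Total deposited counts ran from 382184 to 790139 per mouse, heavy and light chains together, and classed heavy chains took 159112 to 361865 of them. Before assignment, 74 IgA clonotypes had been found in more than 1 mouse, 70 of them in 2 mice and 4 in 3. Of the 82 mouse pairs that shared a clonotype, counted once per clonotype, 74 were libraries with consecutive numbers. Isotype replicates 1 to 5 were libraries 1 to 5, and anti-CTLA-4 replicates 1 to 5 were libraries 6 to 10. Effects of library number and of treatment therefore cannot be told apart in comparisons between the groups. Isotype replicates 3 and 4 shared 35 IgA clonotypes, isotype replicates 1 and 2 shared 14, anti-CTLA-4 replicates 2 and 3 shared 12 and anti-CTLA-4 replicates 3 and 4 shared 8. Assignment removed 30 clonotypes and 26.2% of the IgA counts from isotype replicate 4, and at most 5.42% of the IgA counts of any other mouse.

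The 5 clonotypes found in most mice, ties being ordered by total counts, were all clonotypes of isotype mice. IGHV1-62-2/IGHV1-71 with the CDR3 ARHGYGKGAMDY had 15497 counts in isotype replicate 1, 4 in isotype replicate 2 and 9 in isotype replicate 5. IGHV1-62-3/IGHV1-72 with ARWGYYGITGMVDY had 12714, 167 and 391 counts in isotype replicates 1, 2 and 4. IGHV2-2 with 17 CDR3 residues had 10715, 25 and 190 counts in isotype replicates 2, 3 and 4. These 3 clonotypes were held almost wholly by 1 mouse each. IGHV1-62-2/IGHV1-71 with ARHGGSRYYFDY had 9917, 5 and 41 counts in isotype replicates 2, 3 and 4. The exception was IGHV5-16 with ARYQLLRFDY, the leading IgA clonotype of isotype replicate 3, which had 18776 counts there and 12188 in isotype replicate 4. Whether such sharing reflects the mice or the handling of the libraries was not tested, and values without the assignment are given here or among the processing results where a sign turned or a call changed.

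IgA was rare by clonotype and abundant by count in both groups. Of the heavy-chain clonotypes it made up 0.167%, 0.920%, 0.713%, 0.294% and 0.676% in anti-CTLA-4 replicates 1 to 5, against 0.724%, 0.234%, 0.598%, 0.686% and 0.424% in isotype replicates 1 to 5. The groups overlapped over nearly their whole range. Mean shares were 0.554% ± 0.313 in anti-CTLA-4 mice and 0.533% ± 0.203 in isotype mice (SD, n = 5 each), and the difference of 0.0208 percentage points was smaller than the spread between mice (p = 0.897 by the exact permutation test, two-sided, and adjusted p = 0.897 over 2 abundance tests). Without the assignment of shared clonotypes the difference was -0.00247. For the mouse with the fewest IgA clonotypes, anti-CTLA-4 replicate 1, the share rested on 35 of 20970 clonotypes, with a 95% exact Clopper-Pearson interval of 0.116% to 0.232%, which covers counting error only.

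By counts, IgA took 1.05%, 33.0%, 8.21%, 58.0% and 29.4% of the heavy chain in anti-CTLA-4 replicates 1 to 5, against 45.9%, 22.6%, 43.1%, 68.2% and 60.3% in isotype replicates 1 to 5. Anti-CTLA-4 replicates 1 and 3 lay below every isotype mouse, and replicates 2, 4 and 5 lay within the isotype range. The mean was 25.9% ± 22.5 after anti-CTLA-4 and 48.0% ± 17.6 after isotype IgG (SD, n = 5 each), a difference of -22.1 percentage points that missed the threshold (p = 0.127 by the exact permutation test, adjusted p = 0.254). In these bulk samples, fewer IgA cells and less IgA RNA per cell cannot be told apart, and a share of counts also moves with the counts of the other classes. With 5 mice a group the smallest p the test allows is 0.00794.

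**Figure D1:**
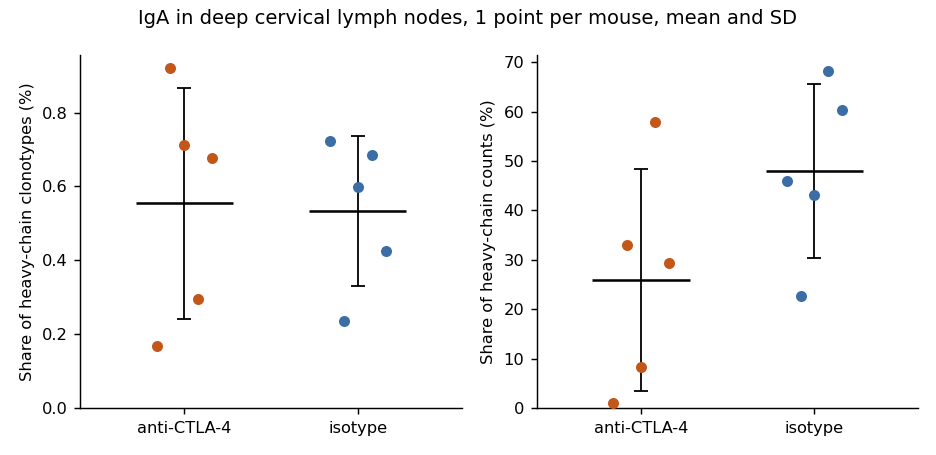
Share of heavy-chain clonotypes (left) and of heavy-chain counts (right) that were IgA, in percent, for 5 anti-CTLA-4 and 5 isotype mice; points are mice, long bars means and whiskers SD. The groups overlap in both panels, and anti-CTLA-4 replicate 1 has 1.05% of counts against 22.6% or more in isotype mice.

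A few clones held most of the IgA counts in every mouse. The leading clonotype had 21.9%, 27.6%, 15.2%, 25.4% and 12.6% of the IgA counts in anti-CTLA-4 replicates 1 to 5, against 13.2%, 27.8%, 14.4%, 33.3% and 24.0% in isotype replicates 1 to 5. Between 3 and 10 clonotypes sufficed for 50% of the IgA counts of a mouse, with a median of 4 in either group. The 10 most counted clonotypes held 73.6% ± 17.4 of IgA counts after anti-CTLA-4 and 78.8% ± 7.59 after isotype IgG (SD, n = 5 each). Across all mice, 130 clonotypes with 1000 counts or more held 84.0% of the 781020 IgA counts, while the median clonotype had 7 counts and 466 clonotypes had 1.

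None of the 3 measures of clone size separated the groups. The leading clonotype's share averaged 20.6% ± 6.45 after anti-CTLA-4 and 22.5% ± 8.65 after isotype IgG (SD, n = 5 each; exact permutation p = 0.675, adjusted p = 0.675 over the 3). The difference of -1.97 percentage points was -0.0711 without the assignment of shared clonotypes. Evenness, which is 1 when all clonotypes have equal counts, averaged 0.630 ± 0.0830 after anti-CTLA-4 and 0.566 ± 0.0545 after isotype IgG (exact permutation p = 0.206, adjusted p = 0.560). At an equal depth of 3786 IgA counts, the total of anti-CTLA-4 replicate 1, the expected number of clonotypes averaged 81.7 ± 36.01 after anti-CTLA-4 and 64.9 ± 21.6 after isotype IgG (exact permutation p = 0.373, adjusted p = 0.560). That difference of 16.8 clonotypes was 7.83 without anti-CTLA-4 replicate 5 and 28.5 without anti-CTLA-4 replicate 1.

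IgA clonotypes carried more counts than IgG clonotypes of the same mouse. The mean of log2 counts per clonotype was 4.03 ± 0.52 for IgA and 2.29 ± 0.19 for IgG (SD, n = 10 mice). The difference of 1.74 was positive in 10 of 10 mice (two-sided exact sign-change permutation p = 0.00195, the smallest that 10 mice allow; adjusted p = 0.00635 over 13 tests within mice). It averaged 1.87 ± 0.35 in anti-CTLA-4 mice and 1.596 ± 0.44 in isotype mice, and the difference between them missed the threshold (exact permutation p = 0.294, adjusted p = 0.378 over 9 tests of this kind).

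Many clonotypes were close relatives of a larger one. Joining IgA clonotypes of a mouse with the same V and J gene, equal junction length and 90% or more junction identity gave 699 lineages. Of the 466 clonotypes with 1 count, 369 lay in a lineage with a clonotype of 100 counts or more, and 63 were alone in their lineage. The broadest lineage belonged to the IGHV1-15 leader of anti-CTLA-4 replicate 2, whose CDR3 reads TRGRPLDY: it held 48 clonotypes, 521 sequences and 22670 counts, and its leading clonotype had 97.0% of those counts. Only 1 of its 48 clonotypes was free of V mismatches, and that was the leader itself; 18 of the 48 had 1 count. The broadest lineages of the other mice held 4 to 18 clonotypes. The 3 clonotypes with most distinct sequences were this IGHV1-15 leader with 367 sequences, the IGHV1-62-3/IGHV1-72 leader of isotype replicate 5 (CDR3 ARGAAQATFAY) with 90, and an IGHV1-15 clonotype of isotype replicate 4 (CDR3 TRSLSFDY, 9521 counts) with 89. None of the 3 had a V mismatch in its most counted sequence.

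V gene use in IgA varied from mouse to mouse, over 35 to 212 clonotypes a mouse, where IgM had 14637 to 30138. The genes with the highest mean share of IgA clonotypes were IGHV1-15 (6.02% ± 8.94), IGHV1-62-3/IGHV1-72 (5.76% ± 5.17), IGHV1-39 (5.13% ± 6.59), IGHV1-26 (4.94% ± 3.12) and IGHV9-3 (4.65% ± 3.96) (SD, n = 10 mice). In IgM the same genes had 2.82% ± 0.149, 3.99% ± 0.165, 1.16% ± 0.0540, 4.29% ± 0.302 and 3.76% ± 0.127. IGHV1-15 owed its rank to a single mouse, with 58 of its 99 IgA clonotypes in anti-CTLA-4 replicate 2 and 18 lineages in all. IGHV1-39 had 26 of its 76 clonotypes in anti-CTLA-4 replicate 4. IGHV1-26 had 79 clonotypes in 39 lineages of 9 mice, 25 of the 79 in anti-CTLA-4 replicate 5.

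By counts, IGHV1-62-3/IGHV1-72 was the leading V call. It took 0%, 0.0728%, 4.69%, 25.5% and 2.85% of IgA counts in anti-CTLA-4 replicates 1 to 5, against 23.4%, 27.8%, 0.145%, 21.2% and 29.7% in isotype replicates 1 to 5. It thus held over 21% in 4 isotype mice and 1 anti-CTLA-4 mouse and under 5% in the other 5 mice. IGHV1-64 had 21.9% in anti-CTLA-4 replicate 1 and 22.4% in replicate 4, IGHV1-15 had 32.1% in anti-CTLA-4 replicate 2, IGHV9-3 had 24.0% in anti-CTLA-4 replicate 5 and IGHV1-81 had 33.7% in isotype replicate 4.

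**Figure D2:**
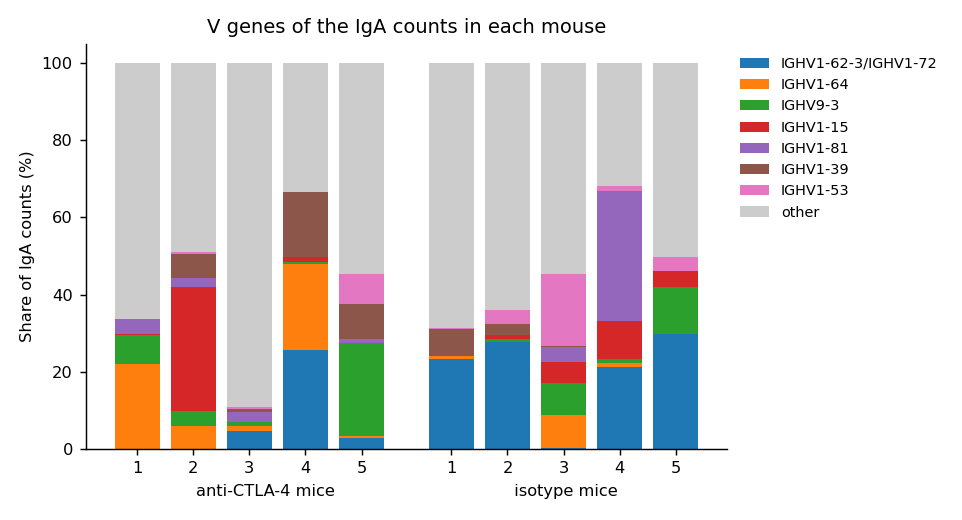
Share of IgA counts by V gene call, in percent, in each anti-CTLA-4 and isotype mouse; the 7 calls with the highest mean share are coloured and all others are grey. IGHV1-62-3/IGHV1-72 fills 21.2% to 29.7% of the bar in 4 isotype mice and 25.5% in anti-CTLA-4 replicate 4. IGHV1-64 fills 21.9% and 22.4% in anti-CTLA-4 replicates 1 and 4.

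Between the groups, edgeR's quasi-likelihood test on the number of IgA clonotypes per V gene called 0 of 11 tested genes (0.0%) at an adjusted p under 0.05, and 0 had an unadjusted p under 0.05. DESeq2 also called 0 of 11, with 0 below 0.05 unadjusted. Without the filter on low numbers edgeR tested 82 genes, of which 7 had an unadjusted p under 0.05 and 0 an adjusted one. Of the tested genes, IGHV1-75 had the smallest p, with a mean share of 1.53% ± 1.95 after anti-CTLA-4 and 3.92% ± 3.31 after isotype IgG (log2 fold change -1.36 ± 1.09 SE, edgeR adjusted p = 0.848). IGHV1-62-3/IGHV1-72 had 2.54% ± 2.14 after anti-CTLA-4 and 8.99% ± 5.43 after isotype IgG (log2 fold change -1.34 ± 1.16, edgeR adjusted p = 0.848). IGHV1-39 pointed the other way, with 7.11% ± 8.97 after anti-CTLA-4 and 3.15% ± 2.76 after isotype IgG (log2 fold change 1.27 ± 1.20, edgeR adjusted p = 0.848). IGHV1-64 (0.87 ± 1.04), IGHV1-15 (0.90 ± 1.22), IGHV1-26 (0.25 ± 1.08) and IGHV1-55 (0.24 ± 1.11) had positive log2 fold changes, and IGHV1-81 (-0.82 ± 0.97), IGHV8-8 (-0.74 ± 1.24), IGHV5-17 (-0.28 ± 1.22) and IGHV9-3 (-0.03 ± 0.96) negative ones, all smaller than their error. In simulated tables with 17.6 tested genes on average the same test recovered 35 of 50 genes changed 4-fold. Those tables used IgM shares and a fixed spread between mice that was not fitted to IgA, so that rate may not hold here. Changes of 4-fold, and smaller ones, could have been missed.

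Against IgM of the same mice, several V genes were scarce in IgA. Of 51 V genes tested with the mouse as a block, 16 passed (31.4%), 15 of them lower in IgA (29.4%) and 1 higher (1.96%). The choice of scaling moved this split: without TMM factors 7 were lower and 3 higher, and with DESeq2 15 were lower and 3 higher. The median log2 fold change of all 51 genes was -0.97 with TMM factors and -0.44 without, so values are best read relative to that shift. Called under all 3 fits were 8 genes, IGHV14-1/IGHV14-2, IGHV14-4, IGHV1-69, IGHV1-50, IGHV3-6, IGHV1-80 and IGHV1-19 as lower, and IGHV1-7 as higher. Genes were tested if their mean share over the libraries of both classes was at least 0.5%, so a gene could enter through 1 class alone. IGHV1-7, IGHV5-9-1 and IGHV5-6 had 0.216%, 0.289% and 0.285% of IgM clonotypes and entered only through their IgA share. IGHV14-1/IGHV14-2, IGHV14-4 and IGHV1-19 lay below the limit in IgA and entered only through their IgM share. Some of the other lower calls did so too and are named below.

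IGHV14 genes had the lowest fold changes. IGHV14-1/IGHV14-2 made up 0.355% ± 0.906 of IgA and 2.17% ± 0.259 of IgM clonotypes (SD, n = 10 mice), with 2 IgA clonotypes in 2 mice (log2 fold change -4.40 ± 0.97 SE, edgeR adjusted p = 0.000286). IGHV14-4 had 0.175% ± 0.380 of IgA and 2.16% ± 0.170 of IgM, with 3 IgA clonotypes in 2 mice (-4.11 ± 0.92, edgeR adjusted p = 0.000286). As a family, IGHV14 held 2.30% ± 2.08 of IgA and 6.41% ± 0.435 of IgM clonotypes, and its IgA share lay below its IgM share in 10 of 10 mice. IGHV14-3 was an exception within the family, with 1.65% ± 1.73 of IgA and 1.14% ± 0.0697 of IgM clonotypes.

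IGHV1-69 had 0.871% ± 1.86 of IgA and 2.77% ± 0.161 of IgM (log2 fold change -3.25 ± 0.79, edgeR adjusted p = 0.000831), IGHV1-50 had 0.733% ± 0.882 and 2.77% ± 0.165 (-2.85 ± 0.74, adjusted p = 0.00159), and IGHV3-6 had 1.66% ± 1.18 and 4.37% ± 0.339 (-2.06 ± 0.59, adjusted p = 0.00492). IGHV1-80 (-2.31 ± 0.68) and IGHV1-19 (-2.88 ± 0.88) followed, with edgeR adjusted p of 0.00579 and 0.00842. IGHV1-19 had 0.268% ± 0.566 of IgA and 1.32% ± 0.0875 of IgM clonotypes, and so entered only through its IgM share. The IGHV1-19 call was lost with a minimum count of 2 (edgeR adjusted p = 0.0772), and those of IGHV1-80 and IGHV3-6 were lost when counts were tested (edgeR adjusted p of 0.0589 and 0.188). The other 8 lower calls, IGHV1-52, IGHV1-54, IGHV1-9, IGHV1-82, IGHV1-5, IGHV1-59, IGHV1-61 and IGHV8-12, had log2 fold changes of -2.46 to -1.59 and edgeR adjusted p of 0.0222 to 0.0413, and lost the call without TMM factors. Without isotype replicate 1 the test called 9 genes, all among the 16.

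IGHV1-7 was the gene that passed as higher in IgA, with 3.44% ± 5.67 of IgA and 0.216% ± 0.0289 of IgM clonotypes (log2 fold change 2.18 ± 0.72 SE, edgeR adjusted p = 0.0153). It was found in 9 mice, but 16 of its 30 clonotypes were in isotype replicate 5 and 5 in anti-CTLA-4 replicate 1, and the call was lost without either mouse, at 1.76 (edgeR adjusted p = 0.0526) without isotype replicate 5 and 1.71 (adjusted p = 0.0766) without anti-CTLA-4 replicate 1. Tested on counts in place of clonotypes its sign turned (-0.26, edgeR adjusted p = 0.947). IGHV5-9-1, with 1.39% ± 0.969 of IgA and 0.289% ± 0.0609 of IgM, missed the threshold with TMM factors (log2 fold change 1.56 ± 0.66, edgeR adjusted p = 0.0511) and passed it without them (2.09, adjusted p = 0.00938) and with DESeq2 (adjusted p = 0.000456). It also passed without the assignment of shared clonotypes (1.68, edgeR adjusted p = 0.0329). IGHV1-39, IGHV5-6 and IGHV5-17 had log2 fold changes of 1.08 ± 0.61, 1.06 ± 0.75 and 0.83 ± 0.68, with edgeR adjusted p of 0.180, 0.301 and 0.343. Of these, IGHV1-39 passed without TMM factors (1.62, edgeR adjusted p = 0.0323), with lineages in place of clonotypes (1.09, adjusted p = 0.0144) and with DESeq2 (1.37, adjusted p = 0.0122). Of the most used genes, IGHV9-3, IGHV1-26, IGHV1-15 and IGHV1-62-3/IGHV1-72 had log2 fold changes between -0.62 and -0.37, of which the last 3 turned positive without TMM factors. With lineages in place of clonotypes IGHV1-62-3/IGHV1-72 passed as lower in IgA (-0.91, edgeR adjusted p = 0.0144). That lineage fit called 22 of 57 genes, 16 lower and 6 higher.

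**Figure D3:**
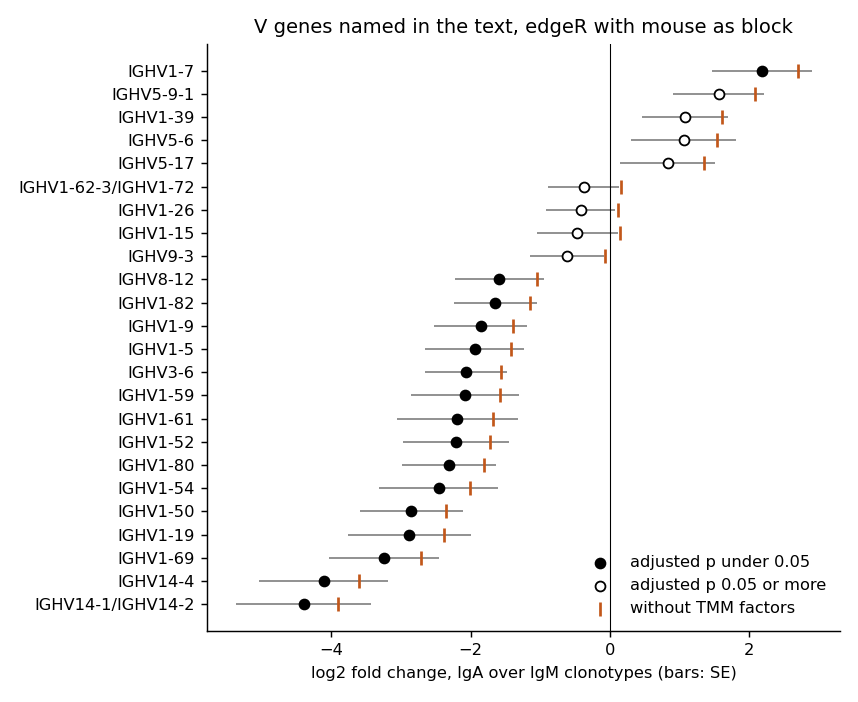
Log2 fold change of IgA over IgM clonotype numbers for the V genes named in the text, with SE bars; filled points passed an adjusted p of 0.05 in edgeR, open points did not, and vertical ticks give the value without TMM factors. The 15 genes that passed as lower lie between -4.40 and -1.59, and IGHV1-7 lies at 2.18.

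V genes that typify B-1 cells, a self-renewing lineage known in the mouse for natural antibodies and as one source of gut IgA, were about as rare in IgA as in IgM. Of the 4 listed genes, IGHV7-1 had 4 IgA clonotypes with 1347 counts, IGHV11-2 had 2 clonotypes, and IGHV11-1 and IGHV12-3 had 0 of 1439. In IgM, IGHV11-1 and IGHV12-3 had 9 and 173 of 204766 clonotypes, so finding none in IgA does not show a shortage. Together they made up 0.417% of IgA clonotypes and 0.406% of IgM clonotypes, pooled over the mice. B-1 cells also use other V genes, so these counts bear only on the 4 genes.

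IgA V segments carried several times the mismatches of IgM, and close to those of IgG. The mean number of V mismatches per 100 nucleotides, from the most counted sequence of each clonotype, was 0.839 ± 0.233 in IgA, 0.757 ± 0.218 in IgG and 0.135 ± 0.0151 in IgM (SD, n = 10 mice). IgA exceeded IgM by 0.704 on average, in 10 of 10 mice (two-sided exact sign-change permutation p = 0.00195, adjusted p = 0.00635 over 13 tests). The share of clonotypes without any mismatch was 36.3% ± 10.4 in IgA and 82.1% ± 1.33 in IgM, lower in IgA in 10 of 10 mice, with the same p. IgA and IgG differed by 0.0824 mismatches per 100 nucleotides, with IgA the higher in 7 of 10 mice, which was less than the spread between mice (exact sign-change permutation p = 0.473, adjusted p = 0.768).

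Between the groups, anti-CTLA-4 mice had the lower mean number of IgA mismatches. Per 100 nucleotides the values were 0.588, 1.00, 0.768, 0.437 and 0.684 in anti-CTLA-4 replicates 1 to 5, against 1.06, 1.07, 0.807, 1.16 and 0.816 in isotype replicates 1 to 5. All anti-CTLA-4 mice but replicate 2 lay below every isotype mouse. The means were 0.696 ± 0.210 after anti-CTLA-4 and 0.983 ± 0.161 after isotype IgG (SD, n = 5 each), and the difference of -0.287 passed the unadjusted test but not the adjusted one (p = 0.0397 by the exact permutation test; 0.159 after adjustment over the 5 measures of mutation).

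The share of IgA clonotypes without a V mismatch was 45.7%, 25.1%, 48.3%, 47.0% and 46.2% in anti-CTLA-4 replicates 1 to 5, against 21.8%, 31.3%, 39.9%, 24.1% and 33.3% in isotype replicates 1 to 5. Anti-CTLA-4 replicates 1, 3, 4 and 5 lay above every isotype mouse and replicate 2 among the lowest. Means were 42.5% ± 9.74 after anti-CTLA-4 and 30.1% ± 7.30 after isotype IgG (exact permutation p = 0.0635, adjusted p = 0.159). The broad IGHV1-15 lineage of anti-CTLA-4 replicate 2, with its single unmutated clonotype of 48, lies in the mouse that stood apart, and its part in that mouse's value was not tested. Whether IgA minus IgM differed between the groups was tested directly, and neither mismatches (difference -0.290, exact permutation p = 0.0397, adjusted p = 0.119) nor the unmutated share (13.6 percentage points, exact permutation p = 0.0317, adjusted p = 0.119) passed over 9 such tests.

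**Figure D4:**
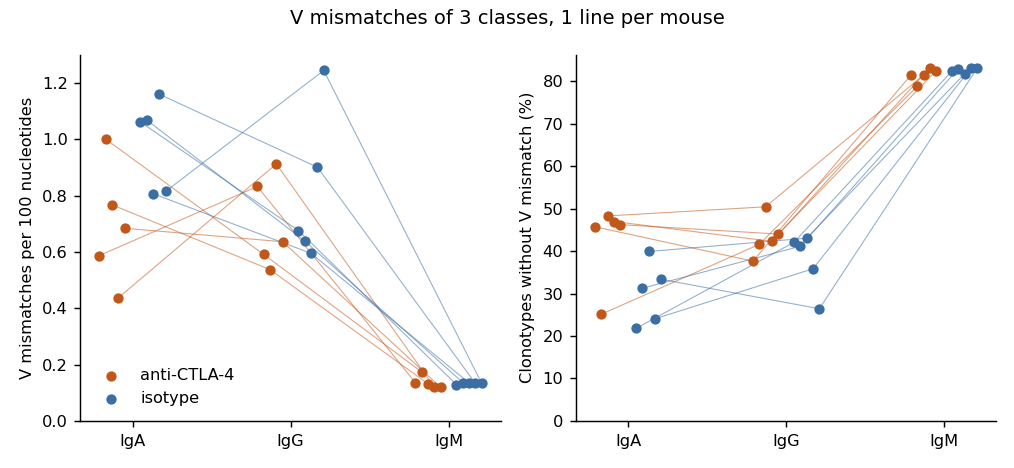
V mismatches per 100 nucleotides (left) and the percentage of clonotypes without a mismatch (right) in IgA, IgG and IgM; each line joins the values of 1 mouse, coloured by anti-CTLA-4 or isotype IgG. IgA lies above IgM in mismatches in 10 of 10 mice, and the 2 groups overlap in IgA.

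Large IgA clones were often unmutated. Of the clonotypes with 1 count 15.2% had no V mismatch, of those with 2 to 10 counts 38.3%, with 11 to 100 counts 43.1%, with more but under 1000 counts 48.6%, and of the 130 with 1000 counts or more 53.8%. In the largest class the share was 63.8% of 47 clonotypes in anti-CTLA-4 mice and 48.2% of 83 in isotype mice; no anti-CTLA-4 replicate 1 clonotype reached 1000 counts. Among the 10 most counted clonotypes of each mouse, 4 to 8 had no mismatch, 60 of 100 in all. Clonotypes of a mouse are not replicates, and many count-1 clonotypes lie in the lineage of a larger one, so these shares are descriptions.

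**Figure D5:**
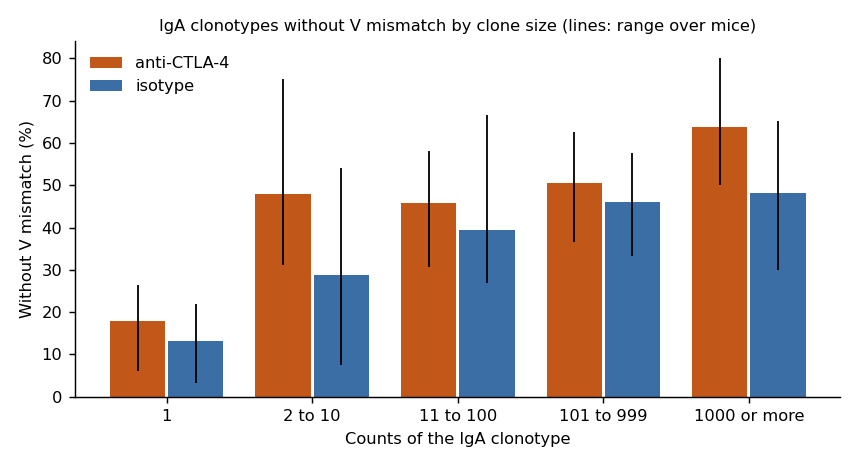
Percentage of IgA clonotypes without a V mismatch by the number of counts of the clonotype, for anti-CTLA-4 (left bars) and isotype mice (right bars), clonotypes pooled within a group; vertical lines span the lowest to the highest mouse. The pooled share over both groups is 15.2% at 1 count and 53.8% at 1000 counts or more.

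Among the 10 leading clonotypes, 7 had no V mismatch, including the IGHV1-62-3/IGHV1-72 leader of anti-CTLA-4 replicate 4 (CDR3 ARGGTYGNSFAY, 26841 counts). The IGHV9-3 leader of anti-CTLA-4 replicate 5 (CDR3 ARGGQLGGYAMDY, 8523 counts) had 2 and the IGHV1-62-3/IGHV1-72 leader of isotype replicate 2 (CDR3 ARDSSGYVAWFAY, 15420 counts) had 3. The exception was the IGHV1-81 leader of isotype replicate 4, with the CDR3 ARRGGTSYFDY and 33515 counts, the most of any IgA clonotype, which had 10. Its V segment of 294 bases is printed because it shows what a mutated leading clone looks like, with the 10 mismatched bases in capitals.
IGHV1-81, isotype replicate 4: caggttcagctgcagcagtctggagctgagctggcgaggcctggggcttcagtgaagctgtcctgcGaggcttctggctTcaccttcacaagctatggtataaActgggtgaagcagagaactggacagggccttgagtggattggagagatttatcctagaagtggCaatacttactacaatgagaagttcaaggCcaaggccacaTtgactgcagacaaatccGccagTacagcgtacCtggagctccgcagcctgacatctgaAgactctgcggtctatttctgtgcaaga
Counted from 1 at the first base printed, germline base first, the mismatches are A67G in framework 1, A80T in CDR1, G104A in framework 2, T168C in CDR2, and G197C, C208T, T226G, C231T, A241C and G267A in framework 3. G104A, G197C and C231T lie at WRC or GYW, and A80T and T168C at WA or TW. T168C, C208T, C231T and G267A leave the amino acid as it was, and the other 6 change it.

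IgA mismatches were concentrated at the motifs that AID prefers. At WRC or GYW lay 37.2% ± 3.69 of IgA mismatches and 16.8% ± 2.13 of IgM mismatches (SD, n = 10 mice), a difference of 20.4 percentage points found in 10 of 10 mice (exact sign-change permutation p = 0.00195, adjusted p = 0.00635). Those positions made up 14.5% ± 0.391 of the germline bases of the same IgA segments, so mismatches were 2.57 ± 0.254 times as frequent there as their share of bases. WA and TW held 26.6% ± 4.59 of IgA mismatches and 18.5% ± 0.388 of bases. Transitions made up 60.6% ± 4.15 of IgA mismatches in anti-CTLA-4 mice and 59.3% ± 4.81 in isotype mice. By germline base, G had 33.9% ± 4.87 of IgA mismatches, A 29.4% ± 5.00, C 22.5% ± 5.44 and T 14.2% ± 3.47. Mismatches were counted in each clonotype, so a mismatch shared within a lineage was counted repeatedly, and these shares were not computed by lineage. The same holds for the mismatch rates by class and by region.

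On average the CDRs were the most mutated regions, a pattern that was not tested. CDR2 had 1.53 ± 0.615 IgA mismatches per 100 bases and CDR1 1.18 ± 0.486, against 0.834 ± 0.266 in framework 3, 0.650 ± 0.304 in framework 2 and 0.485 ± 0.144 in framework 1 (SD, n = 10 mice). In anti-CTLA-4 replicate 4, frameworks 2 and 3 stood higher, with 0.563 and 0.407, against 0.366 in CDR2 and 0.393 in CDR1. Framework 1 of that mouse was lower, at 0.290. Of IgA mismatches in CDR1 and CDR2, 84.8% ± 10.5 changed the amino acid. The codon-changing share was 51.9% ± 9.02 in framework 1, 57.4% ± 22.7 in framework 2 and 67.4% ± 6.05 in framework 3. The share that the codons of each region would give without selection was not computed. Of these patterns 3 were compared between the groups, and all 3 missed the threshold. The WRC and GYW share was 37.3% ± 5.08 after anti-CTLA-4 and 37.1% ± 2.21 after isotype IgG (exact permutation p = 0.929, adjusted p = 0.929), and the WA and TW share 25.9% ± 6.07 and 27.2% ± 3.09 (exact permutation p = 0.667, adjusted p = 0.833). The codon-changing share in the CDRs was 81.0% ± 13.7 after anti-CTLA-4 and 88.6% ± 4.67 after isotype IgG (exact permutation p = 0.278, adjusted p = 0.463), and rested on 14 and 19 CDR mismatches in anti-CTLA-4 replicates 1 and 4, against 55 or more in each of the other mice. The difference of -7.61 percentage points was -3.44 without anti-CTLA-4 replicate 1 (exact permutation p = 0.563) and -12.4 without anti-CTLA-4 replicate 4 (exact permutation p = 0.0317, adjusted p = 0.159).

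Some large clonotypes stood beside a large variant that differed within the junction. In isotype replicate 3, IGHV1-53 clonotypes with the CDR3 ARLWEEGFAY (12229 counts, 8 V mismatches) and VRLWEEGFAY (11504 counts, 3 mismatches) differed at 1 junction base and shared none of their V mismatches. In isotype replicate 1, the IGHV1-62-3/IGHV1-72 clonotypes ARWGYYGIIGMVDY (14254 counts, 3 mismatches) and ARWGYYGITGMVDY (12714 counts, 4 mismatches) also differed at 1 base and shared 1 V mismatch. In isotype replicate 5, the unmutated leader ARGAAQATFAY (22929 counts) stood beside TRGAAQATFAY (4769 counts, 2 mismatches). The junctions of these pairs follow, with the base that differs in capitals.
ARLWEEGFAY: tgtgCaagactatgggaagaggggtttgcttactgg
VRLWEEGFAY: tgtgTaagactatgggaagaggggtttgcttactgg
ARWGYYGIIGMVDY: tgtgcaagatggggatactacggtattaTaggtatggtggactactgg
ARWGYYGITGMVDY: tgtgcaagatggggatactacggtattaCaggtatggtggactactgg
ARGAAQATFAY: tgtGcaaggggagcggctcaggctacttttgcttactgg
TRGAAQATFAY: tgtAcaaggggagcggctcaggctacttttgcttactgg

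Closely similar IgA rearrangements were also found in different mice. Among the 446 IgA clonotypes with 100 counts or more, 24 pairs from different mice had the same V and J gene and CDR3s of equal length that differed by 0 or 1 residue. The CDR3 was identical in 7 pairs and 18 pairs were from libraries without consecutive numbers, and 13 pairs joined an anti-CTLA-4 and an isotype mouse. This search was made after the values had been seen, and it has no test. The pairs are not independent, since several share a clonotype.

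The clearest set was IGHV1-26 with IGHJ4, found without a V mismatch in 4 mice: ARGYGSSSYAMDY in anti-CTLA-4 replicate 2 (629 counts) and isotype replicate 1 (102 counts), and ARGYGSSPYAMDY in anti-CTLA-4 replicate 5 (912 counts) and isotype replicate 3 (1131 counts). IGHV10-1 with IGHJ3 gave the 7-residue CDR3 VRGGFAY in anti-CTLA-4 replicate 2 (449 counts), isotype replicate 1 (1238 counts) and isotype replicate 3 (652 counts). IGHV9-3 with IGHJ1 gave VKRRDWYFDV in anti-CTLA-4 replicate 2 (2119 counts) and isotype replicate 5 (1539 counts). The nucleotide junctions of these sets are printed to show that they differ between the mice, with the bases between V and J in capitals.
IGHV1-26, anti-CTLA-4 replicate 2: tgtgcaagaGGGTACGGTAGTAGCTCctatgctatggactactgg
IGHV1-26, anti-CTLA-4 replicate 5: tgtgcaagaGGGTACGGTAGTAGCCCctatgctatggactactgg
IGHV1-26, isotype replicate 1: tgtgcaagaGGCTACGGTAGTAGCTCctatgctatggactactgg
IGHV1-26, isotype replicate 3: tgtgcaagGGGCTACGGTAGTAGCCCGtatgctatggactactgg
IGHV10-1, anti-CTLA-4 replicate 2: tgtgtgagaGGAGggtttgcttactgg
IGHV10-1, isotype replicate 1: tgtgtgagGGGGGggtttgcttactgg
IGHV10-1, isotype replicate 3: tgtgtgagaGGGGggtttgcttactgg
IGHV9-3, anti-CTLA-4 replicate 2: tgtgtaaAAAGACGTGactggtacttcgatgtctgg
IGHV9-3, isotype replicate 5: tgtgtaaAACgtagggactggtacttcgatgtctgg
Pairs with 1 residue different included IGHV1-62-3/IGHV1-72 clonotypes of isotype replicates 4 and 5, ARAAAQATFAY (3032 counts) and ARGAAQATFAY (22929 counts), which differed at 5 junction bases and came from libraries with consecutive numbers. IGHV1-39 gave ARNYAMDY in anti-CTLA-4 replicate 4 (5690 counts) and ARGYAMDY in anti-CTLA-4 replicate 5 (5223 counts), with 4 junction bases different. IGHV1-78 gave ARDYYGTYWYFDV in anti-CTLA-4 replicate 4 (1558 counts) and ARDYYGNYWYFDV in isotype replicate 1 (5485 counts), with 3 bases different.

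CDR3 length was close in the 3 classes. The mean was 11.7 ± 0.720 residues in IgA, 11.7 ± 0.447 in IgG and 11.8 ± 0.0376 in IgM (SD, n = 10 mice), and IgA minus IgM was negative in 5 of 10 mice (exact sign-change permutation p = 0.617, adjusted p = 0.891). Between the groups it was 11.3 ± 0.648 residues after anti-CTLA-4 and 12.0 ± 0.687 after isotype IgG (exact permutation p = 0.167, adjusted p = 0.25 over 3 tests). Weighted by counts the difference between the groups was 0.0323 residues in place of -0.665. The shortest mean, 10.4 residues, was that of anti-CTLA-4 replicate 2, where the 8-residue IGHV1-15 lineage lies.

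J gene use was tested within mice. IGHJ1 made up 19.8% ± 6.22 of IgA and 15.5% ± 0.302 of IgM clonotypes (SD, n = 10 mice), higher in IgA in 8 of 10 mice, and missed the threshold (difference 4.30 percentage points, exact sign-change permutation p = 0.0254, adjusted p = 0.0660). It passed without anti-CTLA-4 replicate 4 (5.02, exact adjusted p = 0.0305) or isotype replicate 3 (4.95, exact adjusted p = 0.0406), and was 2.82 without isotype replicate 5 (exact adjusted p = 0.132). IGHJ2, IGHJ3 and IGHJ4 had differences of -0.138, 0.0162 and -4.18 percentage points, with adjusted p of 1, 1 and 0.402 by the exact test. IGHJ3 held 19.6% ± 8.56 of IgA clonotypes in anti-CTLA-4 mice and 29.7% ± 9.32 in isotype mice, a contrast that was not tested.

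Relatives of an IgA clonotype were clonotypes of another class in the same mouse with an identical V gene, J gene and junction. Of the 1439 IgA clonotypes, 148 had an IgG relative, 56 an IgM or IgD relative and 23 both, while 1258 had neither. The IgG relative had the same most counted V(D)J sequence in 99 of 148 cases, and IgA was the more counted partner in 105. Clones with an IgG relative were large, with a median of 269.5 IgA counts, and 50 of them had 1000 IgA counts or more. Relatives under 1% of the IgA count, whose origin from the same cells was not tested, numbered 21 for IgG and 6 for IgM. In the other direction, IgA was under 1% of the IgG count in 10 cases and of the IgM count in 2. The origin of those IgA sequences was not tested either.

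IgG2b was the usual IgG partner. Switching to it, as to IgA, is known in cultured mouse B cells to be promoted by TGF-beta, whose part here was not tested. The most counted IgG sequence was called IGHG2B in 105 of the 148 relatives (70.9%), IGHG2C in 33, IGHG1 in 4 and IGHG3 in 4. Among all IgG clonotypes of these mice, here counted before assignment and so in every mouse where they were found, IGHG2B made up 38.5%, IGHG2C 27.2% and IGHG1 20.2%. The IGHG2B share was higher among the relatives than among all IgG clonotypes in 10 of 10 mice, for example 14 of 16 relatives against 214 of 815 IgG clonotypes in anti-CTLA-4 replicate 2 and 15 of 24 against 218 of 530 in isotype replicate 3. Some mice had few relatives, with 2 in anti-CTLA-4 replicate 1, 1 of them IGHG2B, and 7 and 8 in isotype replicates 4 and 2. The comparison was not matched for clone size, was noticed in the data and has no test. Calls of the 2 genes were mixed within rearrangements: 22 of the 33 IGHG2C relatives also had IGHG2B sequences, and 33 of the 105 IGHG2B relatives had IGHG2C sequences.

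The largest relatives included clones with mostly IgA and clones with mostly IgG counts. IGHV1-15 with TRGRPLDY had 21993 IgA and 582 IgG counts in anti-CTLA-4 replicate 2. IGHV6-6 with TGYYGSSLAWFAY had 62 IgA, 21477 IgG and 904 IgM counts in anti-CTLA-4 replicate 5, all 3 without a V mismatch. IGHV1-18 with ARPPLGGDVGFAY had 21 IgA, 10448 IgG and 1310 IgM counts in anti-CTLA-4 replicate 1. IGHV1-74 with AIWGYDGYPYYFDY had 2271 IgA counts with 6 mismatches and 3807 IgG counts with 0 in isotype replicate 1. The IgA counts of the IGHV6-6 and IGHV1-18 clones are small beside their IgG counts, and whether they came from the same cells was not tested. These relatives were picked by the size of either partner.

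Between the groups, IgG relatives differed by less than the spread between mice, at 10.0% ± 3.30 of IgA clonotypes in anti-CTLA-4 mice and 9.91% ± 3.80 in isotype mice (SD, n = 5 each; exact permutation p = 0.960, adjusted p = 0.960). With relatives sought at 90% junction identity the difference was -18.7 percentage points (exact permutation p = 0.0556, adjusted p = 0.167). IgM or IgD relatives were found for 5.71%, 1.54%, 4.83%, 4.31% and 12.7% of IgA clonotypes in anti-CTLA-4 replicates 1 to 5, against 0.556%, 3.13%, 0.532%, 2.53% and 2.63% in isotype replicates 1 to 5. All anti-CTLA-4 mice but replicate 2 lay above every isotype mouse. The means were 5.83% ± 4.17 after anti-CTLA-4 and 1.88% ± 1.24 after isotype IgG (exact permutation p = 0.0317, adjusted p = 0.0952 over 3 tests), which missed the threshold after adjustment. The difference of 3.95 percentage points was 5.02 without anti-CTLA-4 replicate 2 (adjusted p = 0.0238 by the exact permutation test) and 2.22 without anti-CTLA-4 replicate 5 (adjusted p = 0.190).

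The numbers behind these shares were small, 44 IgA clonotypes with an IgM or IgD relative in anti-CTLA-4 mice and 12 in isotype mice. Anti-CTLA-4 replicate 5 held 27 of the 44, of which 19 had under 10 IgA counts and 11 also had an IgG relative. Weighted by counts the shares were 7.29% ± 7.25 of IgA counts after anti-CTLA-4 and 7.26% ± 11.6 after isotype IgG. With relatives sought at 90% junction identity, the share of IgA clonotypes with IgM or IgD relative differed by 1.93 percentage points (exact permutation p = 0.571), and among clonotypes with 2 counts or more it was 2.91 (exact permutation p = 0.175).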

How the data were processed

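Receptor libraries were made from lymph node RNA with a SMART-Seq mouse kit that adds molecular identifiers, per the labels' protocols. The authors deposited 1 table per mouse with a whole-number count per assembled sequence, its gene calls and its germline alignment, per the file headers. The sources used here do not name the aligner, germline set or identifier handling, so whether counts are reads or molecules is unknown, and intervals cover counting error only. No file gave coordinates that were used. The 80 V genes of the IgA calls were matched by name to the GRCm38.p6 gene table, all on the chromosome named in the text.

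Productive entries with an IGHV call and 1 constant class were kept, which left out 557 sequences. Groups came from the treatment label, and each mouse was 1 replicate. Mismatches needed 200 aligned V nucleotides (2 IgA clonotypes had fewer). Lineages used 90% junction identity. Values per mouse were compared by two-sided exact permutation tests over 252 reassignments of the mice, or exact sign changes within mice. Benjamini-Hochberg adjustment ran over 2 abundance, 5 mutation, 3 clone size, 3 CDR3 and relative, and 13 within-mouse tests, each family apart. V genes were tested with edgeR 4.0.16 (quasi-likelihood, TMM factors, R 4.3.3) on clonotype numbers, with a minimum count of 3 and a minimum total of 10 between groups, or a mean share of 0.5% for IgA against IgM with the mouse as a block. The SE of a log2 fold change is its size over the square root of its F statistic. DESeq2 1.42.0, other filters and scalings, lineages, counts, no assignment and each mouse left out were alternatives, and keeping 1 V call per J gene and junction was added after seeing the data. In simulated tables the class test recovered 107 of 111 genes changed 4-fold and called 28 of 859 unchanged ones. The simulated spread between mice was fixed and not fitted to IgA, so these rates may not hold for the real values. The mismatch counter and the exact tests were tested on simulated data. Python 3.11.15, pandas 2.3.3, NumPy 2.4.6 and SciPy 1.17.1 were used.

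The compartment, the gene lists and the tests were chosen with earlier results of these data known. Named V genes are those past the threshold of either test, the 5 with the smallest p in a direction where fewer pass, the 5 most used in IgA and the 4 B-1 genes. Named clonotypes are the leader of each mouse, the 5 found in most mice and the 3 with most distinct sequences. Other clonotypes were picked after their values were seen.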

Additional observations from a re-analysis of the deposited data

Results flagged for a closer look

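Within the 5 anti-CTLA-4 mice, replicate 2 stood far from the others in the share of IgA clonotypes without a V mismatch, at 25.1% against 45.7% to 48.3% in the other 4, a gap of 0.889 of the group's range. The same mouse stood apart in IgA minus IgM of that share, at -53.7 percentage points (gap 0.851 of the range). Within the 5 isotype mice, replicate 5 stood apart in IgA minus IgG V mismatches, at -0.429 per 100 nucleotides (gap 0.746 of the range), where its IgG value of 1.25 was the highest of the 10 mice. Chance gives such a gap in about 1 in 20 groups, and many measures were screened.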

How the results depend on the processing

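Over 63 results, 879 of 1044 values under another setting kept their direction and side of the threshold, or stayed within 1.5 times for a count of V genes. The IgA against IgM differences in V mismatches, unmutated share and WRC or GYW share, and the IgA against IgG difference in counts per clonotype, passed under every setting run. The cause of the changes below was not tested, apart from the number of V genes tested, which the filter itself sets. Anti-CTLA-4 replicate 1, with 35 IgA clonotypes, limits most shares.

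Without the assignment of shared clonotypes, anti-CTLA-4 minus isotype was -0.00247 for the share of clonotypes, -0.0761 for WRC or GYW and -0.533 for IgG relatives, and 0.80 (log2) for IGHV9-3; IgA minus IgG CDR3 length was 0.00225 and IgA minus IgM IGHJ3 -0.658. With a minimum count of 2 the values were -2.51 for WRC or GYW, 0.673 for WA or TW, -2.44 for IgG relatives, 0.557 for IgA minus IgG WRC or GYW and 0.0855 for IGHJ2. With counts in place of clonotypes they were 0.0323 for CDR3 length and -5.72 for IgG relatives, and between groups -0.28 for IGHV1-15, -0.87 for IGHV1-26, -0.11 for IGHV1-55, 1.09 for IGHV5-17 and 0.44 for IGHV8-8. For IgA over IgM, counts gave 1.32 for IGHV1-62-3/IGHV1-72, -0.26 for IGHV1-7, -0.15 for IGHV5-17 and -3.95 for IGHV5-6. At 90% junction identity IgG relatives differed by -18.7. With 1 V call per J gene and junction, a setting chosen after seeing the data, IGHJ1 passed at 4.80 (exact sign-change permutation adjusted p = 0.0355) and IGHJ3 was -0.774. Between groups, IGHV5-17 and IGHV9-3 were 0.094 and 0.42 with DESeq2 and 0.16 and 0.46 without the filter, and IGHV1-55 was -0.13 by lineages. For IgA over IgM, 10 V genes were called without TMM factors, with IGHV1-15, IGHV1-26 and IGHV1-62-3/IGHV1-72 at 0.14, 0.12 and 0.16, and 30 of 148 were called without the filter.

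Leaving out each mouse in turn moved anti-CTLA-4 minus isotype over -0.0706 to 0.118 for the share of clonotypes, -1.48 to 1.71 for WRC or GYW, -3.36 to 0.696 for WA or TW, -4.30 to 0.725 for the leading clonotype, 2.22 to 5.02 for IgM or IgD relatives and -1.27 to 1.18 for IgG relatives. IgA minus IgM ranged over -0.249 to 0.0272 for CDR3 length, 2.82 to 5.02 for IGHJ1, -2.31 to 1.31 for IGHJ2 and -1.46 to 1.38 for IGHJ3, and IgA minus IgG over -1.33 to 0.765 for WRC or GYW and -0.141 to 0.165 for CDR3 length. The number of V genes called for IgA against IgM was 9 to 19. Between groups, log2 fold changes ranged over -0.92 to 2.25 for IGHV1-15, -0.84 to 0.056 for IGHV1-81, -0.63 to 0.32 for IGHV8-8, -0.33 to 1.17 for IGHV9-3 and -0.58 to 0.34 for IGHV5-17.

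Whether mice with equal replicate numbers were paired could not be decided from V gene use. Over 17 V genes the 5 correlations of equal numbers were -0.201 to 0.189, with 1 above 0.1. Those of unequal numbers were -0.393 to 0.443, so the values spread widely with or without an equal number. With the number as a replicate block, 0 V genes were called between groups, IGHV1-15, IGHV1-81, IGHV5-17 and IGHV9-3 had log2 fold changes of -0.63, 0.27, 0.66 and 0.16, and IgA V mismatches had an exact sign-change permutation p of 0.0625, the smallest that 5 pairs allow. The block changed no call, but with 5 pairs the exact test could not have passed the threshold for any measure.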

Other observations

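A few V mismatches recurred in separate IgA lineages. Counting a mismatch once per lineage, 19 were found in lineages of 3 or more mice, 13 of them at WRC or GYW and 6 in CDR1 or CDR2. Positions are counted from 1 at the first aligned V base, germline base first. In IGHV1-26, with 39 lineages, these were G30A and G176C in 4 lineages each and G176A, A194G, C231T and G246A in 3 each, all from 3 mice. In CDR1, G92A was found in 4 of 14 IGHV1-80 lineages and 3 of 8 IGHV5-6 lineages, A91T in 3 of 29 IGHV9-3 lineages and A91G in 3 of 12 IGHV6-3 lineages. In CDR2, G167A was found in 3 of 8 IGHV1-59 lineages and G167C in 3 of 16 IGHV5-17 lineages, both codon-changing and at WRC or GYW. In IGHV1-62-3, A64T and C285T were in 5 of 5 lineages, from 4 mice. Both are counted among the 19, and C285T among the 13, but whether they are somatic mutations was not tested. The IGHV1-62-3 clonotypes held at most 0.0162% of the IgA counts of a mouse, and in those 4 mice the joint call IGHV1-62-3/IGHV1-72 held 21.2% to 29.7%. Lineages were joined by the first V name of a call, so they could also hold clonotypes of the joint call. The list was drawn up after the values were seen and has no test.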
